A study of Mus musculus with 21 samples.

Results

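The effect of FoxQ1 siRNA was measured in NM18 cells that had all received TGF-b1, by 6 Affymetrix 3′ expression arrays chosen by their titles and treatment labels. They were 6 of the 9 NM18 arrays and of 21 arrays in the series, which asks how the forkhead factor FoxQ1 influences epithelial differentiation. NM18 is a subclone of NMuMG, an established line of mouse mammary gland epithelial cells. Cells of the 3 treated arrays had 25 nM FoxQ1 siRNA, and cells of the 3 control arrays, called control arrays below, had 25 nM of a scrambled siRNA. Both groups received 5 ng/ml TGF-b1 from 8 h after transfection for 40 h, so that RNA was taken 48 h after transfection. A further 3 arrays of scrambled siRNA without TGF-b1 give the level without the cytokine. No group had FoxQ1 siRNA without TGF-b1, so an effect of the siRNA that needs TGF-b1 and one that does not cannot be told apart. The siRNA sequence, and whether 1 siRNA or a pool was used, were not given in the sources used here. The submitters describe the 3 arrays of each group as biological replicates of this 1 cell line. Where nothing more is said of separate cultures, p-values measure the spread between these samples. A free-text note on array 1 of scrambled siRNA without TGF-b1 speaks of the cytokine although the title and the treatment label do not, and the title was followed.

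FoxQ1 is a transcription factor of the forkhead family, whose winged-helix domain binds DNA at a short AT-rich core. TGF-b1 makes mammary epithelial cells lose cell-cell junctions, build actin stress fibres and stop dividing, a programme known as epithelial-mesenchymal transition with growth arrest. Transcription factors of the Snail and Zeb families repress E-cadherin and other junction genes in that programme.

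All levels are deposited log2 values per probe set, and each gene is represented by its brightest probe set (by mean over the 9 NM18 arrays), which gave 12393 genes. A difference of 1 on this scale is a 2-fold change. Genes were called at an adjusted p under 0.05 in limma's moderated test over all genes (Benjamini-Hochberg), and errors beside differences are standard errors of that fit (n = 3 arrays a group). Array medians lay between 7.36 and 7.42, and levels of arrays within a group correlated at 0.994 to 0.998 across genes. FoxQ1 siRNA array 2 stood apart in 2 respects. Its 3′ minus 5′ difference of the actin control probe sets was 0.39, against 0.10 to 0.22 in the other 8 arrays, and its limma array weight was the lowest at 0.51. Each of 41 gene lists described below has a count of rises and one of falls, and without this array 46 of these 82 counts were the same, 24 differed by 1 and 12 by more, at most by 4. Counts that moved by over 1.5 times are given with their list. In such bulk samples, fewer cells of a type and less RNA per cell cannot be told apart.

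Foxq1 itself was lower in every FoxQ1 siRNA array. Its level was 9.08, 9.04 and 9.33 in the control siRNA arrays and 7.57, 8.09 and 7.97 in the FoxQ1 siRNA arrays. The groups did not overlap, and the level fell by 1.27 ± 0.16, or 2.42-fold, with an adjusted p of 0.000291. Control siRNA arrays without TGF-b1 stood at 7.91, 8.49 and 8.38, a range that overlaps that of the FoxQ1 siRNA arrays. TGF-b1 had raised the gene by 0.89 ± 0.16. This call held under all 17 alternative analyses. Unless a sentence says otherwise, so did the call of each gene named as rising or falling below, in each alternative that tested the gene. Of 31 measured forkhead factors 4 fell, Foxq1 included, and 3 rose, beside 8.28% and 11.3% of all genes, with a median of -0.06. Foxn2 fell by 0.75 ± 0.07, Foxd1 by 0.54 ± 0.07 and Foxm1, a factor that drives mitotic genes, by 0.52 ± 0.09. Foxa3, a factor of gut and liver epithelium, rose by 0.82 ± 0.11. The other rises, Foxj1 and Foxp1, were small. Foxj1 changed by 0.33 ± 0.10 and lost its call without control array 1 or 3, array 1 or 3 of the cells without TGF-b1 or any FoxQ1 siRNA array (highest adjusted p = 0.162). Foxp1 changed by 0.30 ± 0.08 and lost it without control array 1 or 2 or FoxQ1 siRNA array 1 or 3 (highest adjusted p = 0.0899). The list then had 1 rise without control array 1 or FoxQ1 siRNA array 1 or 3.

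Across all genes, FoxQ1 siRNA was followed by 2425 calls, which is 19.6% of the genes tested. Of these, 1399 rose (11.3%) and 1026 fell (8.28%). Without control array 1, 864 rose. The shares of 11.3% and 8.28% stand beside every list count of rises and falls with FoxQ1 siRNA below, also where they are not repeated. More genes fell than rose by at least 2-fold: 57 genes rose and 140 fell, and the first count was 36 without control array 1. The largest rise, Acta1 at 2.78, was nonetheless larger than the largest fall, Ccnb2 at -2.33. Most genes barely moved, with 92.4% of them within 0.5 (log2) of no change and a median of -0.005. In 4300 genes, 34.7% of those tested, the 3 and 3 arrays did not overlap, and 2407 of these genes (19.4% of those tested) were called. Under every alternative that tested them, 740 rises and 662 falls kept their call. In the same fit TGF-b1 itself, in control siRNA cells, was followed by 1642 rises (13.2%) and 2165 falls (17.5%). That comparison uses the same 3 control arrays with TGF-b1, so its values stand beside those of FoxQ1 siRNA only as levels of the same genes, and no overlap or correlation between the comparisons is given.

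**Figure D1:**
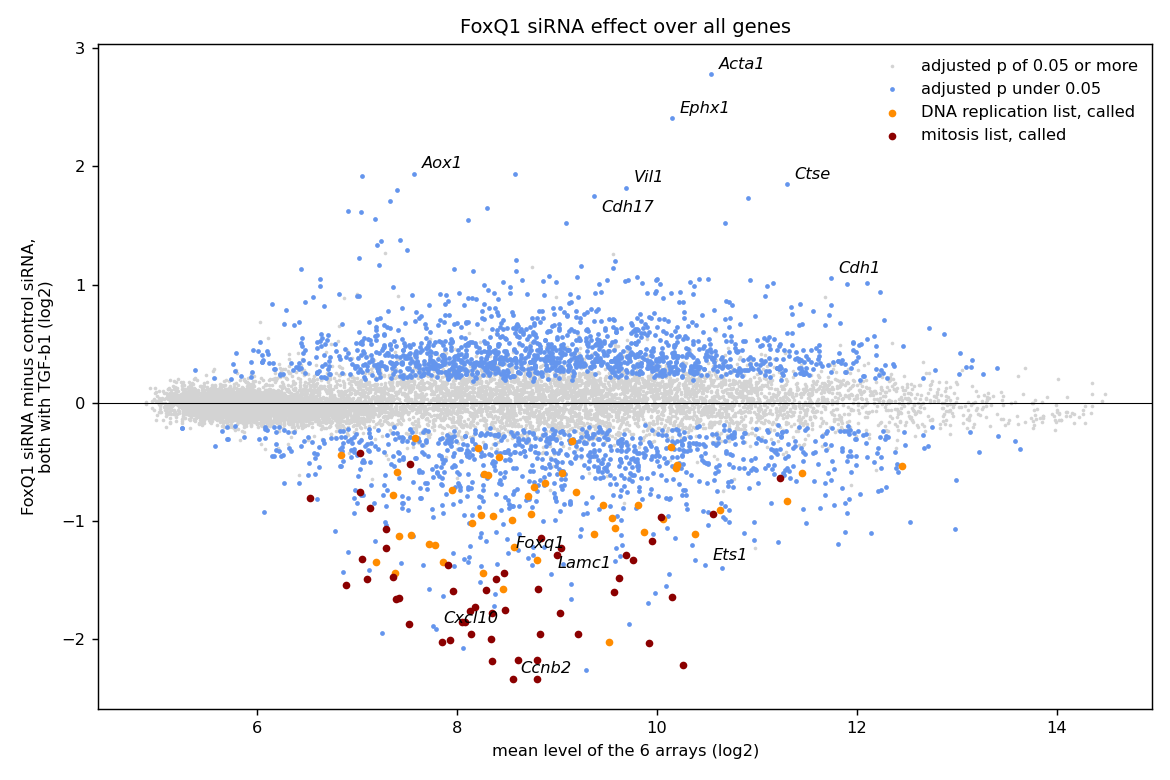
The difference between FoxQ1 siRNA and control siRNA (log2, both with TGF-b1, vertical axis) is plotted against the mean level of the 6 arrays (log2, horizontal axis) for 12393 genes. Called genes of the mitosis list (dark red) and of the DNA replication list (orange) lie below 0, and the largest rise is Acta1 at 2.78.

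Genes of mitosis fell together and furthest. Of 53 measured genes on the mitosis list 52 fell, beside 8.28% of all genes. By at least 2-fold 44 of the list fell, beside 140 of all 12393 genes. The median change was -1.58, beside -0.005 for all genes, and the changes ran from -2.33 to -0.14. The list's median level was 9.23, 9.20 and 9.28 in the control siRNA arrays and 7.38, 7.39 and 7.57 in the FoxQ1 siRNA arrays, after 10.4 in each of the arrays without TGF-b1. The 52 calls became 51 without control array 1 and stayed at 52 without FoxQ1 siRNA array 2. Bub3, a kinetochore checkpoint protein, was the member that missed the threshold, with a change of -0.14 ± 0.06 and an adjusted p of 0.174.

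Among cyclins and their kinase, Ccnb2, a B-type cyclin of mitotic entry, stood at 9.75, 9.64 and 9.78 in the control siRNA arrays and 7.38, 7.22 and 7.57 in the FoxQ1 siRNA arrays. Every FoxQ1 siRNA array lay at least 2 units under every control array, and the level fell by 2.33 ± 0.09, or 5.04-fold (adjusted p = 1.72e-07). Ccna2, the cyclin of S phase and G2, stood at 9.79, 9.66 and 9.66 in the control siRNA arrays and 7.48, 7.45 and 7.65 in the FoxQ1 siRNA arrays, and fell by 2.17 ± 0.07 (adjusted p = 8.87e-08). Cdk1, the kinase that both cyclins bind, fell by 1.60 ± 0.11. These genes had already been lower with TGF-b1 than without it, with differences of -1.42 for Ccnb2, -1.14 for Ccna2 and -0.94 for Cdk1.

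The proliferation marker Mki67 stood at 10.03, 10.11 and 9.77 in the control siRNA arrays and 7.59, 7.75 and 7.57 in the FoxQ1 siRNA arrays, and fell by 2.33 ± 0.13 (adjusted p = 7.15e-07). The ubiquitin-conjugating enzyme Ube2c, which works with the anaphase-promoting complex, stood at 11.47, 11.31 and 11.33 in the control siRNA arrays and 9.08, 9.04 and 9.34 in the FoxQ1 siRNA arrays, and fell by 2.22 ± 0.09. Its coactivator Cdc20 fell by 1.96 ± 0.09. No control array overlapped a FoxQ1 siRNA array in any of the 53 genes of the list, beside 34.7% of all genes without such overlap. Of the passenger complex and its partners, Birc5 fell by 2.18 ± 0.09, Aurkb by 1.85 ± 0.10 and Incenp by 0.97 ± 0.09. The spindle and kinetochore genes Nusap1, Nuf2, Hmmr and Spc25 fell, with changes of -2.18, -2.02, -1.96 and -1.76 in that order. The spindle motor Kif11 fell by 2.00 ± 0.12. The checkpoint kinase Bub1 fell by 1.95 and the centromere protein Cenpf by 2.00. Top2a, the topoisomerase that untangles sister chromatids, fell by 2.03 ± 0.12. Condensin genes fell less, Smc2 by 1.28 and Smc4 by 1.29. Of the 20 largest falls by rule, 5 stood on no list, namely Cep55, Shcbp1, Depdc1a, Aspm and Pclaf. Cep55 and Shcbp1 act at the midbody in cytokinesis, Aspm at the spindle pole and Pclaf with the replication clamp. Their changes were -2.26, -2.07, -1.95, -1.89 and -1.87, in the order named.

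DNA replication genes fell as well, by less. Of 56 measured, 47 fell and 9 did not pass, with a median of -0.78. By at least 2-fold 17 of the list fell, beside 140 of all 12393 genes. The list's median level was 9.14, 9.12 and 9.19 in the control siRNA arrays and 8.16, 8.14 and 8.29 in the FoxQ1 siRNA arrays. The count of falls was 45 to 48 when any 1 of the 9 arrays was left out, and 45 without FoxQ1 siRNA array 2. Rrm2, the inducible subunit of ribonucleotide reductase, stood at 10.86, 10.38 and 10.35 in the control siRNA arrays and 8.67, 8.05 and 8.80 in the FoxQ1 siRNA arrays, and fell by 2.02 ± 0.21 (adjusted p = 6.97e-05). All 6 subunits of the MCM helicase, Mcm2 to Mcm7, were lower, and their changes ran from -1.44 (Mcm5) to -0.83 (Mcm7). Mcm5 stood at 9.09, 9.12 and 8.73 in the control siRNA arrays and 7.65, 7.36 and 7.62 in the FoxQ1 siRNA arrays. Its groups lay more than 1 unit apart. Licensing factors Cdc6 and Cdt1 fell by 1.44 and 0.98, the primase and polymerase genes Prim1 and Pola1 by 1.22 and 1.35, and the thymidine kinase Tk1 by 1.58. The clamp Pcna fell by 0.53.

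**Figure D2:**
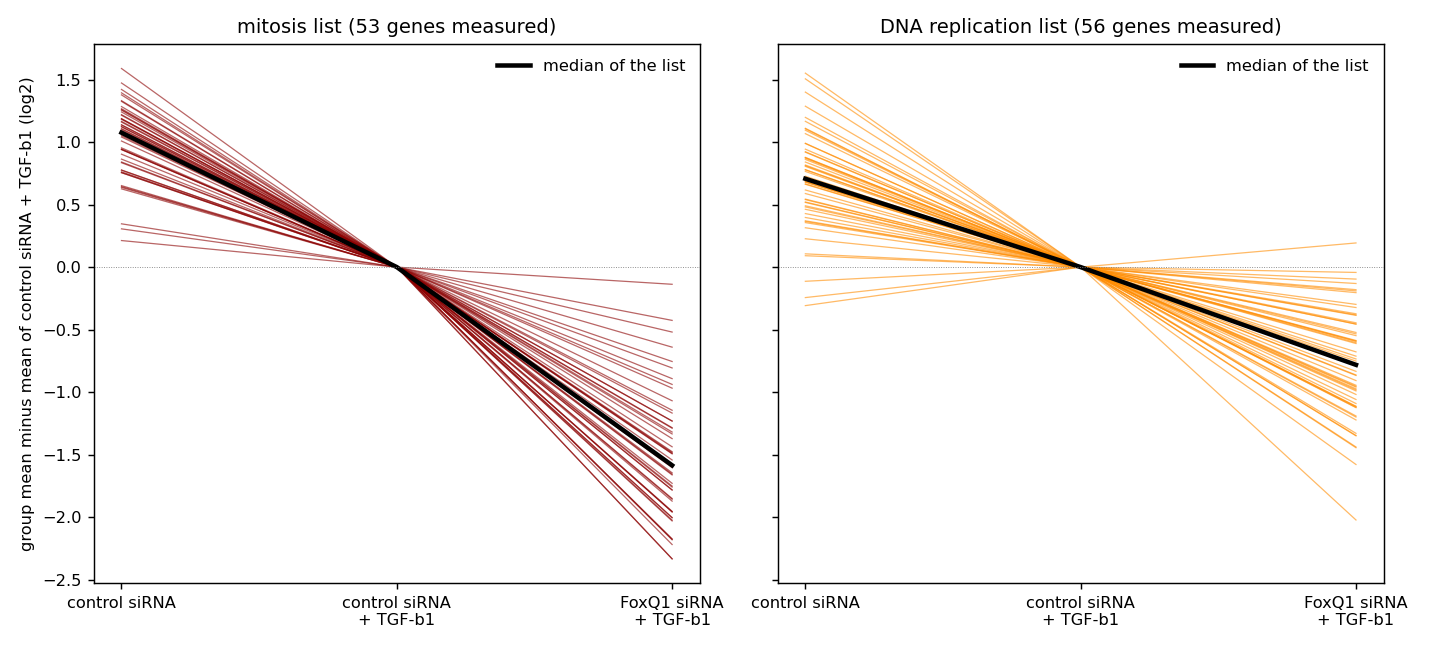
Each line is 1 gene of the mitosis list (53 genes, left) or of the DNA replication list (56 genes, right), drawn as the mean of each group of 3 arrays minus the mean of control siRNA with TGF-b1 (log2, vertical axis). The median of the mitosis list lies 1.07 above that reference without TGF-b1 and 1.58 below it with FoxQ1 siRNA, and the corresponding distances of the DNA replication list are 0.71 and 0.78.

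The genes that set the pace of G1 did not move as one. Ccnd3, a D-type cyclin, stood at 9.40, 9.54 and 9.45 in the control siRNA arrays and 8.08, 8.11 and 8.22 in the FoxQ1 siRNA arrays, and fell by 1.33 ± 0.07 (adjusted p = 4.47e-07), although TGF-b1 had changed it by 0.31. Ccne2, an E-type cyclin, fell by 1.35 ± 0.18. Ccnd1 changed by -0.38 ± 0.16 (adjusted p = 0.137), short of the threshold, which it passed with the replicate number as a block (adjusted p = 0.0184). Ccnd2 changed by 0.19 ± 0.14 (adjusted p = 0.423), not called. Of 36 measured cell cycle inhibitors and p53 targets, 5 rose and 6 fell, beside 11.3% and 8.28% of all genes. Their median was -0.08. With the replicate number as a block 8 rose. Cdkn1a, the p21 inhibitor, changed by 0.02 ± 0.09 and Cdkn2b, the p15 inhibitor that TGF-b signalling is known to raise, by 0.19 ± 0.18, neither called. Cdkn2c and Cdkn2d, INK4 inhibitors, fell by 0.43 and 0.47, and the pocket protein Rbl1 by 0.95. Gadd45b, a stress and TGF-b response gene, stood at 11.92, 11.66 and 11.80 in the control siRNA arrays and 10.71, 10.32 and 10.83 in the FoxQ1 siRNA arrays, and fell by 1.17 ± 0.15, and Gadd45g fell by 0.82 ± 0.13. The p53 target Ei24 rose by 0.85 ± 0.06, Sesn3 by 0.60 ± 0.13 and Btg1 by 0.49 ± 0.09.

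Promoters of 4 genes with large changes are shown from RefSeq (GRCm38.p6), 250 bases before to 50 after the start. The genes were chosen by the size of their change, as the 2 largest falls and 2 largest rises with a promoter sequence at hand. They are a mitotic cyclin (Ccnb2, chr9:70421505-70421804, minus strand), the proliferation marker (Mki67, chr7:135716330-135716629, minus strand), the largest rise (Acta1, chr8:123894726-123895025, minus strand) and the next largest (Ephx1, chr1:181017520-181017819, minus strand). Each is written 5′ to 3′ on the gene's strand. Capitals mark CCAAT or its complement ATTGG (the CCAAT box, bound by NF-Y), TTTGAA on either strand (the CHR of cell cycle genes) and the CArG box (bound by serum response factor).
Ccnb2: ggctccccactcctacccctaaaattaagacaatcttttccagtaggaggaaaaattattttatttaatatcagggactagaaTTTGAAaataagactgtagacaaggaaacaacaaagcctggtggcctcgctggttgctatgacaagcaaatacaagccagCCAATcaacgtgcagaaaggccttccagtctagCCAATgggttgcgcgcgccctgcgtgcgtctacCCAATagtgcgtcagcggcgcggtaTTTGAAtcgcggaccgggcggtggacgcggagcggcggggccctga
Mki67: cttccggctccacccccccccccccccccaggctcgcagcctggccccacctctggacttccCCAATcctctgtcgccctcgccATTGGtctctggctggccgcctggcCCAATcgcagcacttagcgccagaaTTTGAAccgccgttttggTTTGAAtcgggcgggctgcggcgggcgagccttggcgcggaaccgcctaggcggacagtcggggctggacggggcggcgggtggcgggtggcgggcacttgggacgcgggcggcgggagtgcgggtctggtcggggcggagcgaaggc
Acta1: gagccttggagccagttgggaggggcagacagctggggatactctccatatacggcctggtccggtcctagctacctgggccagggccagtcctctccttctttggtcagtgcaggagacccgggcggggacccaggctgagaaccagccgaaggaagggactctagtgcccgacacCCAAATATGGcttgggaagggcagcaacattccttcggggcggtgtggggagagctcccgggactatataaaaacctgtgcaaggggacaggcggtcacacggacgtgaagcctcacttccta
Ephx1: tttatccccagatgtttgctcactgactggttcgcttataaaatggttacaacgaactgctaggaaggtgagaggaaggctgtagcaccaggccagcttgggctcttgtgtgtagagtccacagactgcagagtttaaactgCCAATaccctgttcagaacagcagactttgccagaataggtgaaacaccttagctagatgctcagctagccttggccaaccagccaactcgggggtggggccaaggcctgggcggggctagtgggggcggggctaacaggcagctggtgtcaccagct
The Ccnb2 promoter holds 3 CCAAT boxes and 2 CHR matches, and that of Mki67 holds 3 and 2. The Acta1 promoter holds 1 CArG box that starts 73 bases before the start, and that of Ephx1 holds 1 CCAAT box. The forkhead core TGTTTA is in none of these 4 windows on either strand.

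A promoter sequence was at hand for 9887 of the 12393 genes, and each motif was searched on both strands. The forkhead core TGTTTA stood in 9.64% of all these promoters. It stood in 6.98% of 817 promoters of genes that fell, in 8.96% of 1150 of genes that rose and in 793 of 7920 of genes not called. Among genes that rose by at least 2-fold it was in 8 of 47, or 17.0%, and among those that fell by at least 2-fold in 9 of 112, or 8.04%. The CHR letters stood in 13.0% of all promoters, in 30 of 45 (66.7%) of the mitosis list and in 8 of 47 (17.0%) of the DNA replication list. The CCAAT box stood in 38.3% of all promoters, in 73.3% of the mitosis list and in 59.6% of the DNA replication list. The CArG box stood in 1.53% of all promoters and in 10 of 37 (27.0%) of the actin list. A match is a description of the letters and says nothing of binding, and the motifs other than the forkhead core were chosen after the gene changes were seen.

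Cell-cell junctions showed a small set of rises. Cdh1, which encodes E-cadherin, the adhesion molecule of adherens junctions, stood at 11.07, 11.27 and 11.32 in the control siRNA arrays and 12.34, 12.22 and 12.26 in the FoxQ1 siRNA arrays. All FoxQ1 siRNA arrays lay above all control arrays, and the level rose by 1.05 ± 0.09, or 2.07-fold (adjusted p = 1.3e-05). The arrays without TGF-b1 stood at 12.20, 12.16 and 12.42, which is the range of the FoxQ1 siRNA arrays. The change of Cdh1 with TGF-b1 was -1.04 ± 0.09. Of 17 measured cadherins and catenins, 5 rose and 12 did not pass, with a median of 0.11. Cdh6, a type II cadherin, rose by 1.04 ± 0.16, the p120 catenin gene Ctnnd1 by 0.69 ± 0.15 and the plakoglobin gene Jup by 0.63 ± 0.11, 3 genes that TGF-b1 had also raised, by 1.06, 0.60 and 0.59. The fifth, Ctnna1, changed by only 0.21 ± 0.07 and lost its call in 9 alternatives, among them each that left out a TGF-b1 array or control array 2 without TGF-b1 (highest adjusted p = 0.177). Cdh2, N-cadherin, changed by -0.03 ± 0.09, not called. Ctnnb1, beta-catenin, changed by 0.23 ± 0.08 (adjusted p = 0.0599), and passed the threshold in 5 alternatives, the replicate number as a block (adjusted p = 0.0306) among them.

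**Figure D3:**
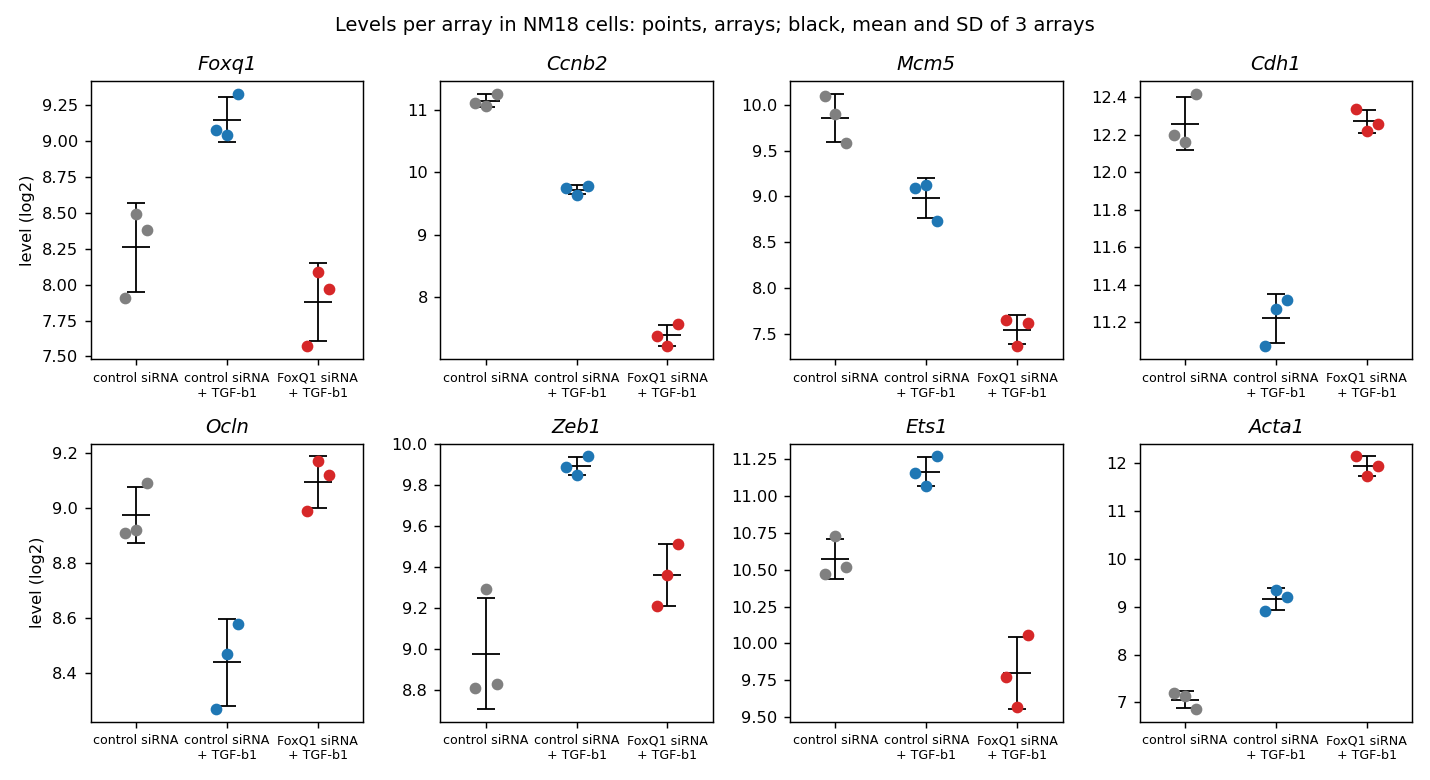
Levels (log2, vertical axes, each with its own range) of 8 genes in the 9 NM18 arrays are shown as points. Colours mark scrambled siRNA without TGF-b1 (grey), control arrays (blue) and FoxQ1 siRNA arrays (red), with the mean and SD of 3 arrays in black. In all 8 genes the points of the compared groups do not overlap, as in 34.7% of all genes. In Cdh1 the FoxQ1 siRNA points lie at 12.22 to 12.34, the range of the arrays without TGF-b1.

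Of 31 measured tight junction and polarity genes, 6 rose and 2 fell, beside 11.3% and 8.28% of all genes. The other 23 did not pass, and the median was 0.00. Ocln, a transmembrane protein of tight junctions, stood at 8.27, 8.47 and 8.58 in the control siRNA arrays and 8.99, 9.17 and 9.12 in the FoxQ1 siRNA arrays, and rose by 0.66 ± 0.09 (adjusted p = 0.000432). Cldn2, a pore-forming claudin, stood at 10.65, 10.66 and 10.59 in the control siRNA arrays and 11.39, 11.85 and 11.37 in the FoxQ1 siRNA arrays, and rose by 0.90 ± 0.12 (adjusted p = 0.000404). Marveld2, a protein of tricellular contacts, rose by 0.44 ± 0.09 and the polarity gene Pard6b by 0.44 ± 0.10. Cldn4 (call lost without control arrays 1 or 2 or FoxQ1 siRNA arrays 1 or 3 and with an intensity trend, highest adjusted p = 0.122) and Crb3 (lost without control array 3) were less stable, at 0.70 ± 0.20 and 0.48 ± 0.12. The falls, Mpp5 (-0.55 ± 0.13) and Dlg1 (-0.38 ± 0.11), became 1 when any 1 of the TGF-b1 arrays but FoxQ1 siRNA array 3 was left out. Tjp1, the ZO-1 scaffold, changed by -0.15 ± 0.07, short of the threshold. Of 12 desmosome genes 3 fell, Ppl by 0.49 ± 0.09, Pkp4 by 0.39 ± 0.09 and, less firmly, Pkp2 (-0.29 ± 0.09, call lost in 8 alternatives). Of 21 genes for keratins and vimentin 1 rose, Krt20, a keratin of gut epithelium, by 1.01 ± 0.13. Vim itself changed by 0.01 ± 0.05 and Krt8 by 0.08 ± 0.07.

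Regulators of epithelial identity gave 4 rises and 1 fall among 25 measured, beside 11.3% and 8.28% of all genes, with a median of 0.00. The ETS factor Elf3 rose by 0.78 ± 0.09, the matriptase inhibitor Spint2 by 0.67 ± 0.09, the adhesion molecule Epcam by 0.66 ± 0.13 and the splicing regulator Esrp2 by 0.42 ± 0.07. Klf4 stood at 9.09, 9.38 and 9.06 in the control siRNA arrays and 8.0, 8.16 and 8.02 in the FoxQ1 siRNA arrays, and fell by 1.11 ± 0.12 (adjusted p = 6.97e-05). With the replicate number as a block 3 of the list fell. Esrp1, Ovol2 and Grhl2 changed by -0.13, 0.03 and -0.01 and were not called. Their means in the control arrays were 5.79, 5.99 and 6.75. For Esrp1 and Ovol2 this is near the lower end of the table, where a fall could hardly be seen.

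Among 22 measured EMT transcription factors, 5 rose and 3 fell, beside 11.3% and 8.28% of all genes, with a median of 0.00. Ets1 stood at 11.16, 11.07 and 11.27 in the control siRNA arrays and 9.77, 9.57 and 10.06 in the FoxQ1 siRNA arrays. The groups lay at least 1 unit apart, and the level fell by 1.37 ± 0.12 (adjusted p = 1.58e-05), below the arrays without TGF-b1, which stood at 10.47, 10.73 and 10.52. Its other 3 probe sets were lower too, at -0.38, -0.41 and -1.35. Zeb1, a repressor of E-cadherin, stood at 9.89, 9.85 and 9.94 in the control siRNA arrays and 9.21, 9.36 and 9.51 in the FoxQ1 siRNA arrays, and fell by 0.53 ± 0.12 (adjusted p = 0.00955). The arrays without TGF-b1 stood at 8.81, 9.29 and 8.83, so that 2 of 3 FoxQ1 siRNA arrays stayed above all of them. Zeb2 changed by -0.23 ± 0.24, Snai1 by -0.11 ± 0.08 and Snai2 by -0.14 ± 0.09, none called. Hmga2, a chromatin protein that TGF-b1 had raised by 0.61, rose by 0.56 ± 0.13 and Tead2, a partner of YAP, by 0.93 ± 0.15. Without control array 1 the rises were 3 in place of 5, since Ets2 (0.36 ± 0.08) and Snai3 (0.32 ± 0.08) then lost their calls. Snai3 also lost its call without FoxQ1 siRNA array 1. Tcf3 changed by -0.30 ± 0.07 and lost its call without control array 1 or 3 or FoxQ1 siRNA array 1.

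Of the Id genes, inhibitors of bHLH factors that TGF-b1 lowers in these cells, Id2 stood at 10.03, 10.36 and 10.14 in the control siRNA arrays and 10.63, 11.39 and 10.86 in the FoxQ1 siRNA arrays. The highest control array lay close under the lowest FoxQ1 siRNA array. Id2 rose by 0.78 ± 0.17 (adjusted p = 0.00677), a small part of the -2.57 by which TGF-b1 had changed it. Its call was lost with the mean of its 3 probe sets (adjusted p = 0.0567). Id1 changed by -0.02 ± 0.15 (adjusted p = 0.948). Id3 changed by -0.38 ± 0.14 (adjusted p = 0.0794), and passed the threshold with the replicate number as a block (adjusted p = 0.0418) and without FoxQ1 siRNA array 1 (adjusted p = 0.0449).

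Of 26 measured SMAD feedback and early TGF-b target genes, 17 had risen with TGF-b1, beside 13.2% of all genes, with a median of 0.90. FoxQ1 siRNA was followed by 3 rises and 1 fall, beside 11.3% and 8.28% of all genes, with a median of 0.04. The rises were 6 and the falls 4 with the replicate number as a block. Leaving out control array 1 or 2 or FoxQ1 siRNA array 1 or 3 left 1 rise, and leaving out array 1 or 2 of the cells without TGF-b1 gave 5. The fall, Pdgfb (-0.68 ± 0.21), was lost without array 3 of the cells without TGF-b1, any control array or FoxQ1 siRNA array 1 or 2 and with an intensity trend, and 2 fell without FoxQ1 siRNA array 3 or array 1 of the cells without TGF-b1. Ski, a corepressor of SMADs, stood at 9.59, 9.59 and 9.67 in the control siRNA arrays and 10.31, 10.13 and 10.22 in the FoxQ1 siRNA arrays, and rose by 0.60 ± 0.07 (adjusted p = 0.000154). Smad7, the inhibitory SMAD, changed by -0.11 ± 0.19 and Skil by 0.05 ± 0.18, neither called.

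Of 39 measured ligands, receptors and antagonists of the TGF-b and BMP pathway, 5 rose and 2 fell, with a median of -0.02. Among ligands, Bmp4 rose by 0.83 ± 0.17, Bmp2 fell by 0.68 ± 0.16, and Inhbb, an activin subunit, fell by 0.93 ± 0.08. Tgfb1 itself changed by 0.18 ± 0.08, not called. Among receptors, Acvr1b, a type I activin receptor, stood at 9.11, 9.14 and 9.32 in the control siRNA arrays and 10.27, 10.16 and 10.26 in the FoxQ1 siRNA arrays, and rose by 1.04 ± 0.08 (adjusted p = 7.21e-06). Its other probe set, dimmer with a mean of 6.37 over the 9 arrays against 9.63, changed by -0.06. Tgfbr1, the type I TGF-b receptor, rose by 0.70 ± 0.17 (adjusted p = 0.0119), and Tgfbr2 changed by -0.12 ± 0.09, not called. Fst, the activin antagonist follistatin, rose by 0.75 ± 0.08. Bmp7 changed by 0.39 ± 0.12 and lost its call in 6 alternatives, 5 of which each left out 1 TGF-b1 array. The signal carriers Smad2, Smad3 and Smad4 changed by 0.16, -0.02 and -0.17, none called, though Smad2 passed with the replicate number as a block (adjusted p = 0.0452).

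**Figure D4:**
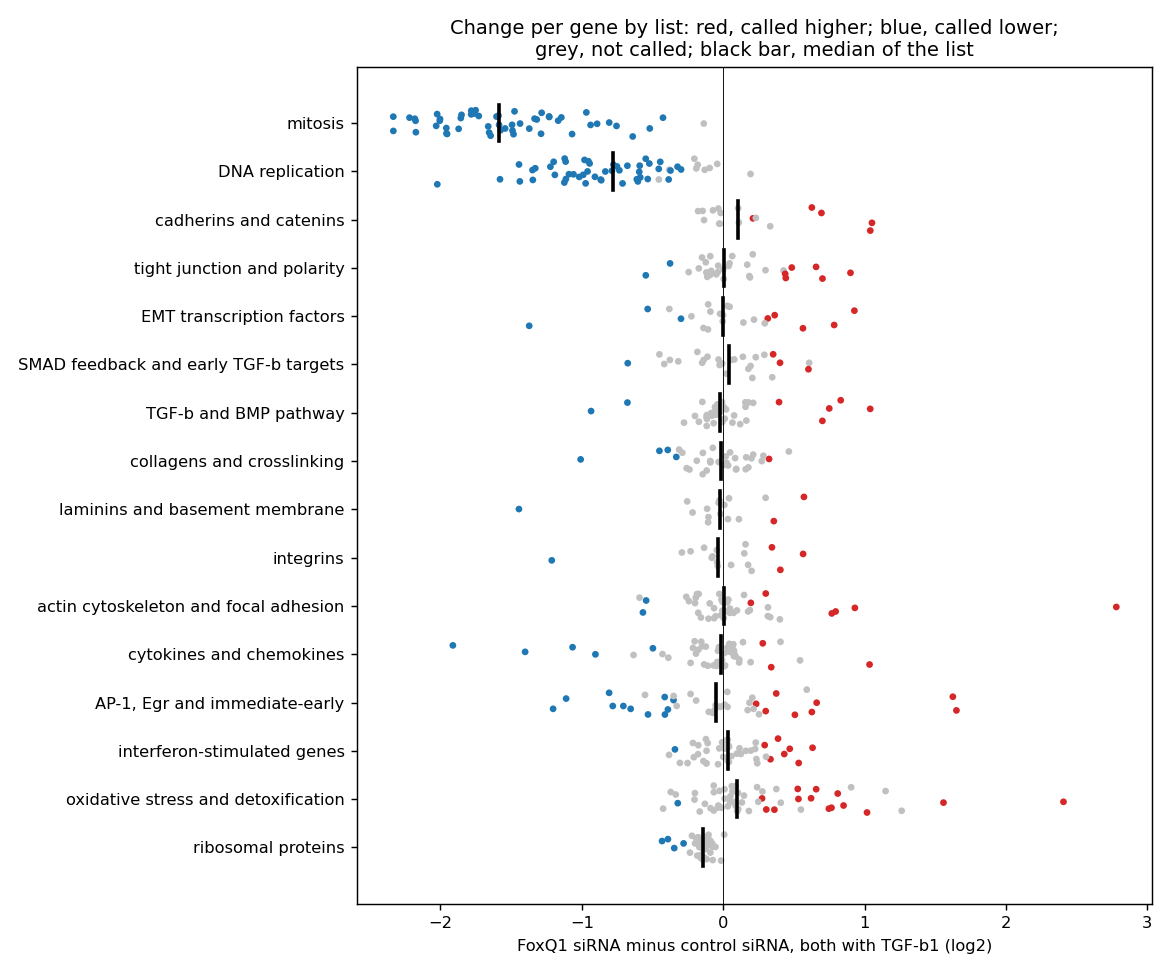
Each point is 1 gene, placed by its difference between FoxQ1 siRNA and control siRNA (log2, both with TGF-b1, horizontal axis) in 1 of 16 lists (vertical axis), with called rises in red, called falls in blue, other genes in grey and the list's median as a black bar. The medians of mitosis and DNA replication lie at -1.58 and -0.78, and those of the other 14 lists between -0.14 and 0.11.

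Matrix genes moved little, apart from single large falls. Of 34 measured collagens and crosslinking enzymes, 17 had risen with TGF-b1, beside 13.2% of all genes. With FoxQ1 siRNA 1 rose and 4 fell, with a median of -0.01. Plod2, a lysyl hydroxylase of collagen crosslinking that TGF-b1 had raised by 2.25, stood at 11.53, 11.17 and 11.72 in the control siRNA arrays and 10.51, 10.01 and 10.88 in the FoxQ1 siRNA arrays, and fell by 1.01 ± 0.20 (adjusted p = 0.00503). Loxl1 fell by 0.45 ± 0.10. The 4 falls became 2 without control array 3 or FoxQ1 siRNA array 1 or 2, and the 1 rise, Col17a1, became 2 or 3 without array 1 or 2 of the cells without TGF-b1 and 3 with the replicate number as a block. Fn1, fibronectin, changed by 0.08 ± 0.32 after TGF-b1 had raised it by 1.89. Of 16 laminin and basement membrane genes, Lamc1, the common gamma chain, stood at 9.52, 9.82 and 9.65 in the control siRNA arrays and 7.88, 8.54 and 8.22 in the FoxQ1 siRNA arrays, and fell by 1.44 ± 0.14 (adjusted p = 3.35e-05), and the change of its other probe set was -0.64. With the replicate number as a block 2 of the list fell. Lamb1 rose by 0.57 ± 0.11 and Nid2 by 0.36 ± 0.06. Of 29 matricellular and elastic fibre genes 1 rose and 2 fell. Ccn4 fell by 1.02 ± 0.18. The other calls, Ccn1 (-0.65 ± 0.18) and Thbs3 (0.41 ± 0.11), were less stable. Ccn1 lost its call without control array 1 or 3 or FoxQ1 siRNA array 2 and with an intensity trend, and Thbs3 without control array 1 or 2 or FoxQ1 siRNA array 1 or 3.

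Of 17 measured integrin subunits, 3 rose and 1 fell, beside 11.3% and 8.28% of all genes, with a median of -0.04. Itgb6, an epithelial subunit that activates latent TGF-b, stood at 8.77, 8.93 and 8.50 in the control siRNA arrays and 7.67, 7.29 and 7.60 in the FoxQ1 siRNA arrays, and fell by 1.21 ± 0.13 (adjusted p = 8.07e-05). Itga5, the fibronectin receptor chain, rose by 0.56 ± 0.09. The rises of Itgb3 and Itgb5 (0.34 ± 0.10 and 0.40 ± 0.11) were lost without control array 1 or 2 or FoxQ1 siRNA array 3, that of Itgb3 also without control array 3 or FoxQ1 siRNA array 1, and 2 subunits fell without control array 2 or FoxQ1 siRNA array 2.

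The actin cytoskeleton held the largest rise of all. Acta1, skeletal muscle actin and a classical target of serum response factor, stood at 8.91, 9.35 and 9.21 in the control siRNA arrays and 12.14, 11.73 and 11.94 in the FoxQ1 siRNA arrays. It rose by 2.78 ± 0.13, or 6.87-fold (adjusted p = 2.52e-07), over a level that TGF-b1 had already raised from 7.19, 7.13 and 6.86. Acta2, smooth muscle actin, stood at 7.65, 7.90 and 7.11 in the control siRNA arrays and 8.57, 8.54 and 8.34 in the FoxQ1 siRNA arrays, and rose by 0.93 ± 0.17 (adjusted p = 0.00246). Its other probe set changed by only 0.11, but its mean over the 9 arrays was 5.76, near the lower end of the table. Muscle actins are nearly identical in sequence, so their probe sets may share signal. The probe sets of Actc1 and Actg2 changed by -0.05 and -0.06. Tagln, a smooth muscle actin-binding protein, rose by 0.80 ± 0.13 and Lima1, an actin bundler, by 0.77 ± 0.17. Of 43 measured genes on the actin cytoskeleton and focal adhesion list, 28 had risen with TGF-b1, beside 13.2% of all genes. With FoxQ1 siRNA 6 rose and 2 fell, with a median of 0.00. With the replicate number as a block 10 rose and 4 fell. Among the falls was Srf itself, at -0.55 ± 0.10, which lost its call with the mean of its probe sets (adjusted p = 0.0518), and Palld (-0.57 ± 0.15), which lost it without control array 3 or FoxQ1 siRNA array 1 and left 1 fall. Cytoplasmic Actb changed by -0.17 ± 0.08, not called.

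Of 46 measured cytokines and chemokines, 3 rose and 5 fell, beside 11.3% and 8.28% of all genes, with a median of -0.02. Cxcl10, a chemokine of the interferon response, stood at 9.25, 8.71 and 8.28 in the control siRNA arrays and 7.12, 6.81 and 6.56 in the FoxQ1 siRNA arrays, and fell by 1.91 ± 0.27 (adjusted p = 0.000526). The arrays without TGF-b1 stood at 8.38, 7.67 and 7.39. Csf1, the macrophage growth factor, stood at 11.50, 11.39 and 11.16 in the control siRNA arrays and 10.20, 9.54 and 10.11 in the FoxQ1 siRNA arrays, and fell by 1.40 ± 0.16 (adjusted p = 0.000126). Ccl2, the monocyte chemokine, fell by 1.07 ± 0.17 (adjusted p = 0.00123). The falls on the list were 10 with the replicate number as a block and 3 without control array 1. Il15 rose by 0.34 ± 0.07, and the rises were 1 without control array 3 or FoxQ1 siRNA array 2. Of 16 NF-kB factors and feedback genes 3 fell, Rela, the p65 subunit, by 0.67 ± 0.07, the inhibitor Nfkbia by 0.90 ± 0.21 and Birc3 by 0.45 ± 0.09. With the block 2 rose and 5 fell, and 1 rose without control array 3, FoxQ1 siRNA array 1 or array 3 of the cells without TGF-b1.

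Of 44 measured interferon genes, 7 rose and 1 fell, with a median of 0.03, and with the replicate number as a block 11 rose and 6 fell. Igtp, an interferon-induced GTPase, rose by 0.63 ± 0.10, Rtp4 by 0.53 ± 0.10 and the RNA-activated kinase gene Eif2ak2 by 0.47 ± 0.10. The fall was Samhd1, by 0.34 ± 0.08, and 2 or 3 fell without control array 2, FoxQ1 siRNA array 3 or array 1 of the cells without TGF-b1. Ifit1 and Mx1, sensors of a type I response, changed by 0.24 and 0.03 and were not called. Their means in the control arrays were 5.81 and 5.64, near the lower end of the table. Ifit1 passed the threshold with the block (adjusted p = 0.0121) and with quantile normalization. Of 12 RNA interference genes 2 rose and 1 fell, with Prkra, which activates the kinase PKR and serves Dicer, up by 0.69 ± 0.11 and Mov10 down by 0.30 ± 0.07. The other rise, Ddx6 (0.25 ± 0.08), was lost in 8 alternatives, among them those without control array 1 or 2, FoxQ1 siRNA array 1 or 3 or array 1 or 3 of the cells without TGF-b1. Without FoxQ1 siRNA array 2 or 3, 2 fell. Of 16 antigen processing genes 1 rose and 2 fell. Psme1, a proteasome activator, rose by 0.53 ± 0.11, while H2-D1 (-0.90 ± 0.24) and H2-K1 (-0.85 ± 0.24) lost their calls without control array 1 or 3 or FoxQ1 siRNA array 2 and with an intensity trend, and their probe sets may share signal between near-identical class I genes. Without array 1 or 2 of the cells without TGF-b1, and with the block, 2 or 3 rose.

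Immediate-early genes went both ways. Of 39 measured AP-1, Egr and related genes, 8 rose and 11 fell, with a median of -0.05, beside 11.3% and 8.28% of all genes. Egr2 stood at 6.14, 6.04 and 6.11 in the control siRNA arrays and 7.59, 8.0 and 7.57 in the FoxQ1 siRNA arrays, and rose by 1.62 ± 0.14 (adjusted p = 1.34e-05). Its arrays without TGF-b1 stood at 5.67, 5.98 and 6.18, so the rise exceeded all 6 control siRNA arrays. Nab2, a corepressor of Egr factors, rose by 0.66 ± 0.10 and its paralogue Nab1 fell by 0.71 ± 0.08. Egr1 changed by 1.65 ± 0.46, but its control arrays ranged widely, at 6.91, 7.41 and 8.11, and its call was lost without control array 1 or 2 or FoxQ1 siRNA array 2 or 3 and with an intensity trend (highest adjusted p = 0.123). The phosphatase Dusp14 fell by 1.20 ± 0.16, Spry1, an inhibitor of receptor signalling, by 0.81 ± 0.16, and Atf3 by 0.78 ± 0.12. Spred1 rose by 0.51 ± 0.09 and Dusp2 by 0.37 ± 0.08. The rises were 4 or 5 without control array 1 or 2 or FoxQ1 siRNA array 1 or 3, and the falls 7 without control array 1 or 3.

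Growth factor genes gave 9 rises and 6 falls among 58 measured, beside 11.3% and 8.28% of all genes, with a median of 0.00. Tgfa, an EGF receptor ligand, rose by 0.72 ± 0.10, Btc, another, by 0.50 ± 0.12, and the receptor gene Erbb2 by 0.33 ± 0.08. Igfbp4, a binding protein of insulin-like growth factors, stood at 8.65, 7.98 and 8.63 in the control siRNA arrays and 9.35, 9.10 and 9.53 in the FoxQ1 siRNA arrays, and rose by 0.91 ± 0.16. Igf2r, which clears IGF2, fell by 0.99 ± 0.20 and the adaptor Irs2 by 0.48 ± 0.06. The falls were 2 or 3 without control array 1 or 2, any FoxQ1 siRNA array or array 3 of the cells without TGF-b1. Of 50 Wnt pathway genes 1 rose and 2 fell, beside 11.3% and 8.28% of all genes. The rise was the transcription factor Tcf7l2, by 0.79 ± 0.15, and the falls were Wnt7a (-0.62 ± 0.16) and Lrp6 (-0.55 ± 0.14). Wnt7a lost its call without any 1 control array and Lrp6 without control array 2 or FoxQ1 siRNA array 1, and 1 gene of the list fell in each of these alternatives. With the replicate number as a block 7 rose and 4 fell, and without FoxQ1 siRNA array 2 or array 2 of the cells without TGF-b1 the rises were 2 and 4. Of 24 Notch pathway genes 1 rose and 1 fell, Rfng (0.29 ± 0.07) and Rbpj (-0.32 ± 0.08). Rfng lost its call with the mean of its probe sets (adjusted p = 0.155) and Rbpj without control array 1, and 2 genes rose with the block and without array 3 of the cells without TGF-b1.

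The next largest rise after Acta1 was that of Ephx1. This gene, microsomal epoxide hydrolase, stood at 8.69, 9.58 and 8.57 in the control siRNA arrays and 11.22, 11.82 and 11.02 in the FoxQ1 siRNA arrays. The FoxQ1 siRNA arrays lay more than 1 unit above the highest control array, and the level rose by 2.41 ± 0.27, or 5.3-fold (adjusted p = 0.000107). Aox1, an aldehyde oxidase of liver, stood at 6.49, 6.89 and 6.43 in the control siRNA arrays and 8.55, 8.92 and 8.15 in the FoxQ1 siRNA arrays, and rose by 1.94 ± 0.18 (adjusted p = 3.21e-05), over arrays without TGF-b1 at 6.41, 6.35 and 6.02. Vil1, villin, the actin bundler of brush borders, stood at 8.56, 9.11 and 8.68 in the control siRNA arrays and 10.57, 10.82 and 10.41 in the FoxQ1 siRNA arrays, and rose by 1.82 ± 0.16 (adjusted p = 2.11e-05). The intestinal cadherin Cdh17 stood at 8.60, 8.23 and 8.65 in the control siRNA arrays and 10.29, 10.23 and 10.22 in the FoxQ1 siRNA arrays, and rose by 1.75 ± 0.14 (adjusted p = 9.26e-06). All 4 genes rose above the range of the arrays without TGF-b1 as well.

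Cbs, which makes cystathionine from homocysteine, stood at 6.45, 6.54 and 6.44 in the control siRNA arrays and 8.29, 8.17 and 8.09 in the FoxQ1 siRNA arrays, and rose by 1.71 ± 0.09. Its control arrays lay close together, more than 1 unit under the FoxQ1 siRNA arrays. Crp, an acute phase protein, rose by 1.61 ± 0.23 and Fam102a by 1.52 ± 0.12, 2 genes that TGF-b1 had hardly changed (-0.17 and -0.09). The platelet chemokine Ppbp rose by 1.80 ± 0.21, the prostaglandin D synthase Hpgds by 1.38 ± 0.24 and the cornified envelope gene Sprr1a by 1.52 ± 0.31. The aspartic protease Ctse stood at 10.33, 10.48 and 10.32 in the control siRNA arrays and 12.12, 12.41 and 12.14 in the FoxQ1 siRNA arrays, and rose by 1.85 ± 0.11. Its other probe set, dimmer with a mean of 6.93 over the 9 arrays against 10.7, changed by -0.47, and so the direction of this gene is uncertain.

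The rest of the 20 largest rises were carried unevenly by the arrays. The galectin Lgals2 stood at 9.71, 10.70 and 9.73 in the control siRNA arrays and 11.46, 12.52 and 11.34 in the FoxQ1 siRNA arrays, and rose by 1.73 ± 0.32, with control array 2 and FoxQ1 siRNA array 2 highest in their groups. Its arrays without TGF-b1 stood at 13.48, 12.96 and 13.47, above all others. The same arrays numbered 2 were highest in Hpx, Serpina1b, Padi2, Apoc2 and Aldh1a7. The heme carrier Hpx rose by 1.94 ± 0.46, a call that was lost without control array 1 (highest adjusted p = 0.0753) and with an intensity trend. The antitrypsin gene Serpina1b (1.92 ± 0.42) and the apolipoprotein gene Apoc2 (1.37 ± 0.33) lost their calls with an intensity trend, and Serpina1b has near-identical neighbours whose transcripts its probes may share. Padi2 (1.55 ± 0.41) and Aldh1a7 (1.56 ± 0.38) lost theirs without control array 1 or 3 and with the trend.

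**Figure D5:**
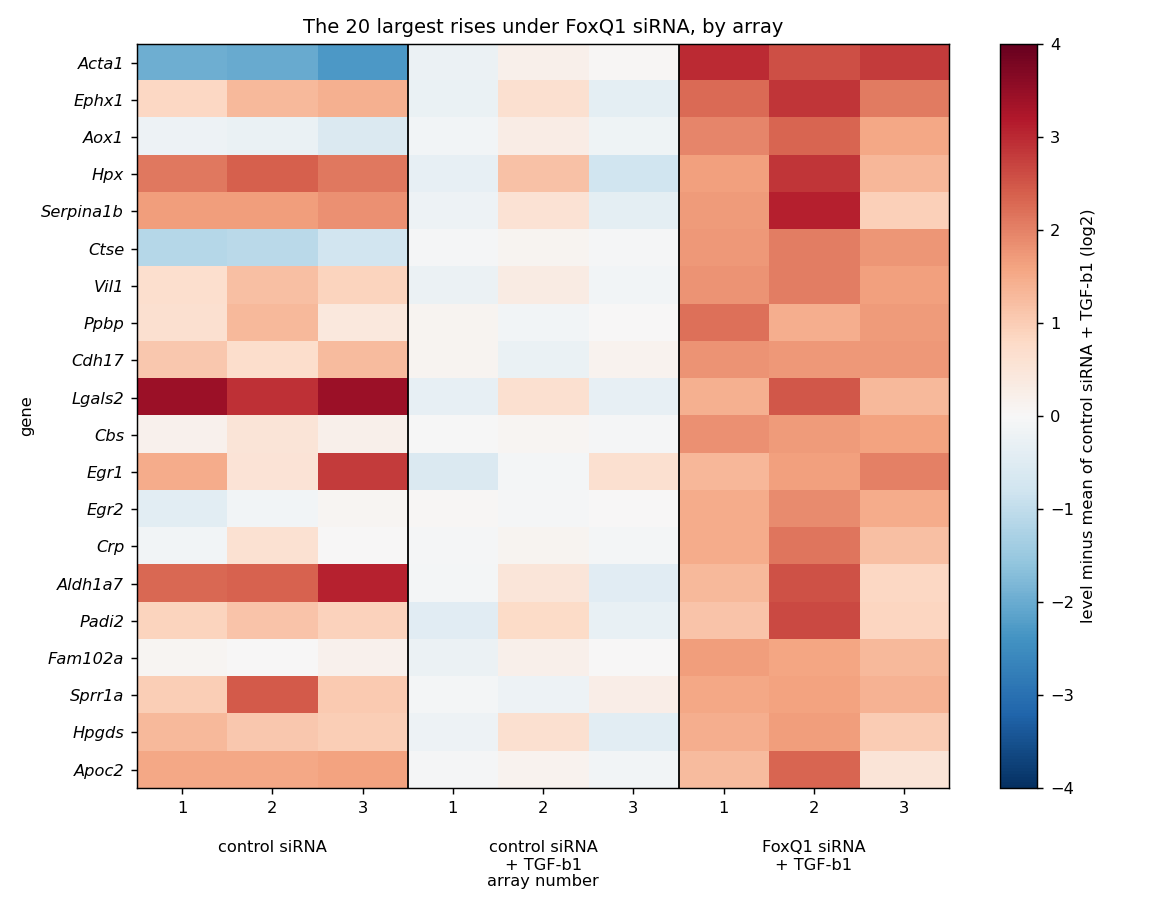
The level of each of the 20 largest rises by rule (rows) in the 9 NM18 arrays (columns, 3 per group) is coloured as its difference from the mean of control siRNA with TGF-b1 (log2, colour bar). All 3 FoxQ1 siRNA arrays are above 0 in each row because the rule takes only rises whose arrays do not overlap. FoxQ1 siRNA array 2 is darkest in rows such as Hpx, Serpina1b and Padi2.

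Ephx1 belongs to a list of oxidative stress and detoxification genes, of which 14 of 57 measured rose and 1 fell, beside 11.3% and 8.28% of all genes, with a median of 0.10. The list's median level was 8.77, 9.58 and 8.79 in the control siRNA arrays and 9.74, 10.47 and 9.39 in the FoxQ1 siRNA arrays. These ranges overlapped, and array 2 was highest in both groups. TGF-b1 had lowered 31 genes of the list and raised 2, beside 17.5% and 13.2% of all genes. Taldo1, transaldolase of the pentose phosphate pathway, stood at 10.49, 10.72 and 10.76 in the control siRNA arrays and 11.60, 11.74 and 11.69 in the FoxQ1 siRNA arrays, and rose by 1.02 ± 0.09 (adjusted p = 2.1e-05). The aldo-keto reductases Akr1b8 and Akr1c13 rose by 0.85 and 0.66 and the glutathione transferase Mgst2 by 0.77. Leaving out control array 1 gave 6 rises, control array 3 gave 9 and FoxQ1 siRNA array 2 gave 10, and 6 of the 14 kept their call under every alternative. The fall was Gsto1, by 0.32 ± 0.06, and 4 fell without FoxQ1 siRNA array 2 and 3 with the replicate number as a block.

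Of 36 cholesterol and fatty acid synthesis genes, TGF-b1 had lowered 22, beside 17.5% of all genes. With FoxQ1 siRNA 3 rose and 5 fell, with a median of -0.05. Tm7sf2, a sterol reductase, rose by 1.20 ± 0.10 (adjusted p = 1.4e-05) and the fatty acid elongase Elovl1 fell by 0.75 ± 0.06. With the block 5 rose and 12 fell, and without control array 1 or 3 or FoxQ1 siRNA array 2 the falls were 2. Of 30 glycolysis and hypoxia genes 4 rose and 1 fell. Pfkm rose by 0.40 ± 0.08. The rises were 7 with the block or without array 3 of the cells without TGF-b1, and 1 or 2 without control array 1 or 2. The fall, Pdk1 (-0.78 ± 0.22), was lost without control array 2 or 3 or FoxQ1 siRNA array 1 or 3 and with an intensity trend, and 2 fell with the block and without FoxQ1 siRNA array 2 or array 1 or 3 of the cells without TGF-b1.

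Of 58 respiratory chain genes 4 rose and 2 fell, with a median of 0.03. Ndufb6 fell by 0.55 ± 0.08 and Ndufa1 rose by 0.40 ± 0.08, both subunits of complex I. The rises were 8 and the falls 4 with the block, and the rises were 1 or 2 without any 1 control array or FoxQ1 siRNA array 2 or 3. Of 39 ribosomal protein genes 4 fell, with a median of -0.14, beside -0.005 for all genes. Rps25 fell by 0.39 ± 0.08. The falls were 8 with the block, 14 with array weights, and 2 without control array 1 or 3 or FoxQ1 siRNA array 1. Of 38 unfolded protein response genes 5 rose and 2 fell, with Edem1 up by 0.41 ± 0.09 and Slc7a5 down by 0.53 ± 0.12. With the block 8 rose, and without control array 1 the rises were 1, as against 3 for control array 2 and 2 for FoxQ1 siRNA array 3. The falls were 1 without control array 3 or FoxQ1 siRNA array 1.

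Of 31 apoptosis regulators 5 rose and 3 fell, with a median of 0.13. Bak1, a pore-forming protein of the mitochondrial membrane, rose by 0.38 ± 0.06 and the initiator caspase gene Casp9 by 0.38 ± 0.07, and 2 of the falls were Birc5 and Birc3 above. With the block 8 rose, and 2 or 3 rose without control array 1 or 3. Of 39 proteases and inhibitors 6 rose and 1 fell, with Plat, tissue plasminogen activator, up by 0.64 ± 0.08 (adjusted p = 0.000263). Leaving out control array 1 gave 2 rises, and leaving out control array 2 or 3 or FoxQ1 siRNA array 1 or 3 gave 3. The fall, Plau (-0.47 ± 0.15), was lost in 11 alternatives, among them those without control array 1 or 3, FoxQ1 siRNA array 1 or 2 or any array without TGF-b1. Of 29 hyaluronan, mucin and glycan genes 5 rose and 1 fell, the fall being Hmmr, which is also a mitotic gene, and with the block 2 fell. Gpc1, a glypican, rose by 0.95 ± 0.20, the mucin-type glycosyltransferase Galnt3 by 0.64 ± 0.07 and syndecan genes Sdc1 and Sdc4 by 0.39 and 0.30.

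Epithelial markers of the labelled cell type were unevenly represented. The luminal keratins Krt8 and Krt18 stood near the top of the table's range in every group, with means of 14.3 and 14.4 in the control arrays, and changed by 0.08 ± 0.07 and 0.07 ± 0.08. Cdh1 was high as well, whereas the luminal markers Epcam, Gata3 and Cldn7 stood at means of 5.93, 5.82 and 5.90 in the control arrays, near the lower end of the table. Krt19, another luminal keratin of the list, did not stay level. Its mean was 13.5 without TGF-b1, 10.4 in the control arrays and 10.8 in the FoxQ1 siRNA arrays. TGF-b1 had changed Krt19 by -3.11 ± 0.24, and FoxQ1 siRNA changed it by 0.40 ± 0.24, not called. The mesenchymal filament gene Vim stood at a mean of 13.9. Of 22 luminal markers 3 rose, among them Cdh1 and Epcam above, and 1 fell, Csn3 (-0.21 ± 0.06), a call lost in 7 alternatives. The milk genes Csn2 and Wap stood at means of 5.46 and 6.16 in the control arrays, near the lower end of the table, and were not called. The median level of the luminal list was 6.12 to 6.20 in the control arrays. Its mean level was 7.80 to 7.84 in the control arrays and 7.87 to 7.93 in the FoxQ1 siRNA arrays. Of 17 basal markers 2 rose, Acta2 and Tagln. With the block 3 luminal markers and 1 basal marker fell, and 1 basal marker fell without FoxQ1 siRNA array 2.

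Lists of markers of other cell types had low mean levels, with exceptions in single genes. The mean level of 15 leukocyte markers was 6.50 to 6.58 in the control arrays and 6.55 to 6.59 in the FoxQ1 siRNA arrays. Cd14 lay well above that mean, at 9.32, 9.49 and 9.53 in the control siRNA arrays and 9.86, 10.14 and 10.11 in the FoxQ1 siRNA arrays, beside 10.40, 10.54 and 10.69 without TGF-b1. Cd14, Cd68 and Ptprc rose by 0.59, 0.50 and 0.35, while the other 12 were not called, Csf1r (-0.18 ± 0.10) among them. Of 17 fibroblast markers 1 fell, S100a4, by 0.86 ± 0.19 from a mean of 8.95, and the list's mean level was 6.17 to 6.23 in the control arrays and 6.09 to 6.13 in the FoxQ1 siRNA arrays. The defining collagen gene Col1a2 and the receptor gene Pdgfra stood at means of 6.13 and 6.06 in the control arrays and changed by 0.03 and -0.05. Of 13 endothelial markers 1 fell, Flt1 (-0.27 ± 0.09), a call lost in 10 alternatives, and Pecam1 and Cdh5 were not called. The changes of 8 adipocyte markers ran from -0.06 to 0.22 without a call, and 1 rose without FoxQ1 siRNA array 3. What these shifts contributed to any result above was not tested.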

How the data were processed

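RNA of the 9 NM18 samples was labelled with the 3′ IVT Express kit and read on Affymetrix arrays, per the labels' protocols. The authors deposited log2 values for 22690 probe sets. The log2 scale was inferred from their range, 4.57 to 14.6, and fold changes rest on it. The submitters' processing notes name affy 1.18.2 with no role; background correction, summarisation and scaling are not given in the sources used here. The NMuMG arrays, scanner files and detection calls were not used here, and for arrays the number per group limits the precision.

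Arrays were grouped by titles and treatment labels. Only the 20380 probe sets with a single gene symbol were used, and not 691 with more than one, 1555 unnamed ones or 64 controls. Symbols were checked through Entrez identifiers for 20351 (0 renamed). Group means of all 9 arrays were fitted with limma 3.58.1 (lmFit and eBayes, R 4.3.3), two-sided, adjusted over 12393 genes. The scripts were tested on simulated data. Arrays of the same replicate number resembled each other: their deviations from group means correlated at 0.16 to 0.61. For other numbers the correlations were -0.51 to -0.04. These add no separate evidence, since deviations cancel out within a group. The main fit left the replicate number out, and the replicate block took it in as an alternative.

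The members and lists were chosen with earlier results of these data known. Named by rule were Foxq1, 12 EMT and TGF-b genes, the 20 largest rises and falls among called genes whose arrays do not overlap, and called members of 41 lists (1188 genes measured). List members that were not called, and genes under other observations, were named after their values were seen. Lists are described by counts and medians, with no set test. Alternatives were the 6 arrays alone, the replicate block, median centring, quantile normalization, genes above the median level, the mean of probe sets, array weights, an intensity trend, and each of the 9 arrays left out; leaving out the arrays without TGF-b1 and the motifs other than the forkhead core were added after seeing the data.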

Additional observations from a re-analysis of the deposited data

How the results depend on the processing

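The counts of rises and falls, overall and by at least 2-fold, stayed within 1.5 times of their values under all 17 alternatives, except that without control array 1 rises were 864 in place of 1399, and rises of at least 2-fold 36 in place of 57. Over the arrays left out in turn, rises ran from 864 to 1449, falls from 765 to 1055, rises of at least 2-fold from 36 to 68 and falls of at least 2-fold from 129 to 155. With the replicate block 2023 genes rose and 1497 fell, and all 1399 and 1026 called without it were called in the same direction; beyond Id3, Ccnd1, Ctnnb1, Smad2, Ifit1 and the list counts given with the results, the block changed no other call named. The change of Foxq1 kept its call throughout.

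Changes near 0 turned their sign in genes without a call. Cdh2 was at 0.0083 with the mean of probe sets and 0.038 with array weights, and ran from -0.090 to 0.064 over the arrays left out, highest without FoxQ1 siRNA array 2. Vim was at -0.0080 with the mean of probe sets and -0.0033 with array weights. Over the arrays left out, Zeb2 ran from -0.46 to 0.017 (above 0 without FoxQ1 siRNA array 2), Smad7 from -0.26 to 0.028 (above 0 without control array 3 or FoxQ1 siRNA array 2) and Id1 from -0.14 to 0.11 (above 0 without control array 3 or FoxQ1 siRNA array 1). The cause was not tested. Of the 2425 calls over all genes, 1023 were lost in at least 1 alternative. With 3 arrays a group, lost calls included large changes, such as those of Hpx and Egr1, and bright genes, such as Ccn1 and Ctnna1. Whether the loss of a call went with level or with size of change was not tested.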

Other observations

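Of the 140 genes that fell by at least 2-fold, 61 stood on the mitosis or DNA replication list and 67 on no list. Several of those outside the cell cycle lists had hardly moved with TGF-b1, and are given here after their values were seen. Cfl2, a muscle-type cofilin that severs actin filaments, stood at 10.64, 10.86 and 10.77 in the control siRNA arrays and 8.89, 9.11 and 9.19 in the FoxQ1 siRNA arrays, and fell by 1.69 ± 0.09 (limma, adjusted p = 5.77e-07), beside a change of 0.11 with TGF-b1. Cdk4, the kinase partner of D-type cyclins, stood at 10.83, 10.74 and 10.78 in the control siRNA arrays and 8.92, 9.32 and 9.29 in the FoxQ1 siRNA arrays, and fell by 1.61 ± 0.09 (adjusted p = 9.24e-07), beside -0.05 with TGF-b1. In both genes the FoxQ1 siRNA arrays lay more than 1 unit under all 6 control siRNA arrays. Magt1, a magnesium transporter and oligosaccharyltransferase subunit, fell by 1.25 ± 0.09 and Apip, an enzyme of methionine salvage, by 1.36 ± 0.13, beside 0.01 and -0.20 with TGF-b1. Septin10, a cytoskeletal GTPase, fell by 1.32 ± 0.11. Others fell from a level that TGF-b1 had raised: the elongation factor Ell2 fell by 1.55 ± 0.14, the fatty acid dehydrogenase Acadvl by 1.45 ± 0.12, the zinc finger protein Bnc1 by 1.30 ± 0.20 and the filopodial myosin Myo10 by 1.20 ± 0.14, beside changes of 0.85, 0.70, 0.85 and 0.96 with TGF-b1.

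Among the 57 genes that rose by at least 2-fold, 45 stood on no list and 0 on the mitosis or DNA replication list. Hnf4a, a nuclear receptor of liver, gut and kidney, stood at 9.50, 10.28 and 9.70 in the control siRNA arrays and 10.63, 11.28 and 10.62 in the FoxQ1 siRNA arrays, and rose by 1.02 ± 0.20 (adjusted p = 0.00433), and the homeobox gene Hhex stood at 9.93, 10.15 and 9.87 in the control siRNA arrays and 10.95, 11.18 and 10.96 in the FoxQ1 siRNA arrays, and rose by 1.05 ± 0.12 (adjusted p = 0.000118). TGF-b1 had changed them by -1.44 and -1.34, and the arrays without TGF-b1 stood at 11.18, 11.31 and 11.30 for Hnf4a and 11.06, 11.41 and 11.49 for Hhex. In both genes only FoxQ1 siRNA array 2 reached that range. The kidney cadherin Cdh16 stood at 7.99, 8.09 and 7.89 in the control siRNA arrays and 9.29, 9.28 and 9.02 in the FoxQ1 siRNA arrays, and rose by 1.21 ± 0.13. Its arrays without TGF-b1 stood at 8.50, 9.04 and 8.57, so that 2 of 3 FoxQ1 siRNA arrays lay above all of them. Nfatc1 and the metalloreductase Steap4 rose by 1.03 ± 0.11 and 1.12 ± 0.12, and TGF-b1 had raised both, by 0.66 and 1.10.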
